A study of Mus musculus with 6 samples.

Results

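Lipid-associated macrophages are macrophages that take up, store and export lipid, and 10 genes that mark them or carry out this work were read from the count table: Apoe, Spp1, Gpnmb, Lpl, Fabp4, Fabp5, Cd36, Cd9, Abca1 and Abcg1. They were chosen by name from a list of 10 symbols, all of which were found among the 22377 genes of the table, and all 10 passed the filter on low counts with 13884 genes in total. Macrophages in tumors, plaques and fat tissue meet large amounts of lipid from dying cells and lipoproteins. Cd36 and lipoprotein lipase bring fatty acids to the cell, the fatty acid binding proteins carry them inside it, and the transporters Abca1 and Abcg1 pass surplus cholesterol to apolipoproteins such as Apoe. The liver X receptors (LXR), which sense oxidized cholesterol, are known to raise Apoe, Abca1 and Abcg1, and PPAR gamma, which senses fatty acids, is known to raise Fabp4, Cd36 and Lpl.

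RNA of 6 libraries was sequenced, 3 labelled wt and 3 labelled knockdown. By the methods of the study, cells positive for CD45, CD11b and F4/80 were sorted as macrophages out of tumors that LLC cells, a mouse lung carcinoma line, formed under the skin of young Npm1+/+ and Npm1+/- mice of both sexes, so that the heterozygous allele is carried by all cells of the animal and not by macrophages alone. The labels instead name tumor tissue as the material, with TRIzol extraction and a library protocol that enriches small RNA where the study's methods give a low-input cDNA kit, and they list wt and knockdown as treatments, with no Npm1 genotype, and the tumor line is shared by both groups. Each library is labelled as a biosample of its own, but the study describes a plot of its RNA sequencing with fewer mice than there are libraries in a group here. Whether each library is a mouse of its own is therefore not settled, and p-values and n here refer to libraries and to the spread between them, which may be technical. Library totals lay between 36550775 and 38147320 counts, and a count of 0 would allow up to 3 counts, or 0.0716 to 0.0846 CPM (counts relative to the size of the library), for counting error only.

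The targeted gene Npm1 was not lower under the label knockdown. Its level was 142, 380.2 and 381 CPM in wt replicates 1, 2 and 3 and 441, 499 and 343 in the libraries labelled knockdown, so every direction below is one between the libraries as labelled. wt replicate 1 stood apart from the other 5 on the first principal component, at -108.5 against -4.54 to 52.0, and values that it moves by over 1.5 times are given both ways. All 12 macrophage markers were present, with a summed level of 12490 to 14890 CPM in wt and 7471 to 12620 in the libraries labelled knockdown. Fewer macrophages in a library and less of an RNA in each macrophage cannot be told apart in such bulk samples.

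Level per length separated the 10 genes into an abundant and a less abundant set. In FPKM, the counts divided by gene length and library total, Spp1, the secreted matrix protein osteopontin, was highest at 651.7 to 1107 over the 6 libraries and ranked 74 among the genes tested. Cd9, a membrane tetraspanin, followed at 225 to 328.5, and Apoe at 127 to 217. Fabp5 lay at 96.0 to 134, below Apoe in each library although their ranges over all 6 libraries overlapped. Cd36 (25.2 to 34.8 FPKM), Gpnmb (18.5 to 35.1) and Abca1 (15.9 to 28.4) overlapped in range, with Cd36 above Abca1 in each library and Gpnmb in no fixed order with either. The lowest were Lpl (11.1 to 16.3), Abcg1 (7.38 to 15.3) and Fabp4 (7.49 to 10.7), where Lpl lay above the range of Fabp4 and the range of Abcg1 overlapped both. All 10 genes together took 0.251% to 0.323% of the counts of a library.

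**Figure D1:**
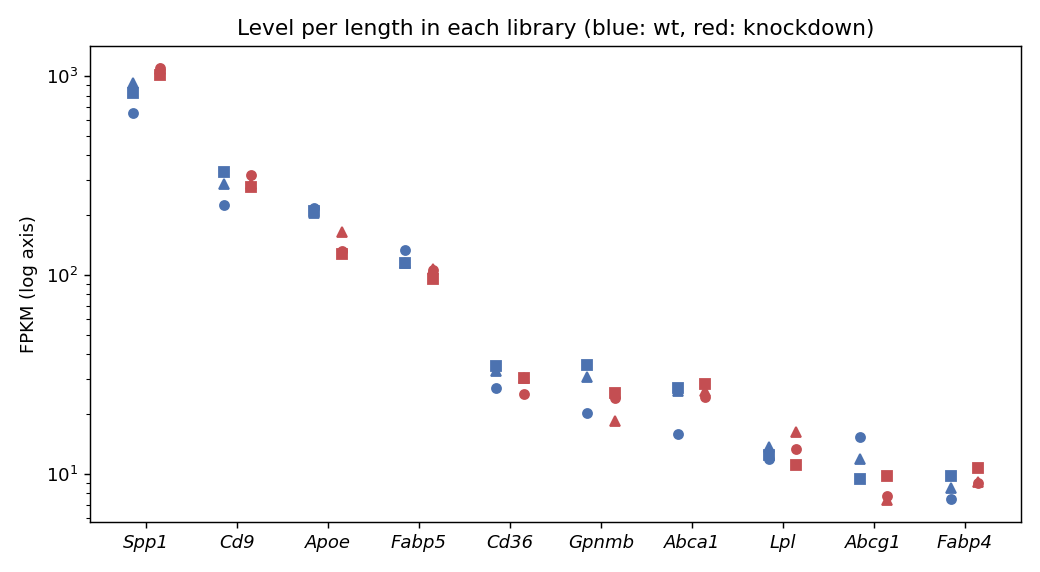
Level per length (FPKM, log axis) of the 10 genes, ordered by their mean, with 1 point per library (blue, wt; red, labelled knockdown; circle, square and triangle, replicates 1, 2 and 3). Spp1 lies above all others at 651.7 to 1107 FPKM and Fabp4 is lowest by mean at 9.06.

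In cholesterol export lay the lowest estimates of the 10 genes, and they were unequal among its members. Apoe, the lipoprotein that accepts exported cholesterol, and Abcg1, which exports it to high density lipoprotein, were each lower in every library labelled knockdown than in any wt library, whereas Abca1, the exporter that loads lipid-poor apolipoproteins, overlapped between the groups. The mean level was 38.8% lower for Apoe and 39.1% lower for Abcg1.

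Apoe (NCBI Gene 11816, chromosome 7, 19696109 to 19699188, minus strand, in GRCm38 as all positions here) overlaps no other annotated gene. Its level was 568.5, 548 and 507 CPM in wt replicates 1, 2 and 3 and 307, 271 and 415 in labelled knockdown replicates 1, 2 and 3. The means were 541 ± 31.5 and 331 ± 74.8 CPM (SD, n = 3 each), and the groups did not overlap, with labelled knockdown replicate 3 nearest to wt. On the log2 scale the estimate, labelled knockdown minus wt, was -0.71 (standard error 0.18, 95% interval -1.12 to -0.30, Benjamini-Hochberg adjusted p = 0.328, edgeR quasi-likelihood test). It was -0.67 without wt replicate 1 and -0.91 without labelled knockdown replicate 3.

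Abcg1 (NCBI Gene 11307, chromosome 17, 31057675 to 31117988, plus strand) had 95.2, 58.9 and 70.2 CPM in wt and 42.7, 49.5 and 44.3 in the libraries labelled knockdown. The means were 74.8 ± 18.6 and 45.5 ± 3.59 CPM (SD, n = 3 each). The wt libraries spread widely, with wt replicate 1 highest, while the libraries labelled knockdown lay close together and below all of them. The estimate for Abcg1 was a log2 fold change of -0.72 (standard error 0.19, 95% interval -1.15 to -0.28, adjusted p = 0.328, edgeR) and -0.51 without wt replicate 1.

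Abca1 (NCBI Gene 11303, chromosome 4, 53030787 to 53159895, minus strand) had 178, 302 and 278 CPM in wt and 242, 259 and 280.1 in the libraries labelled knockdown. wt replicate 1 was lowest of all 6 and the other 5 libraries overlapped. Its log2 fold change was 0.04 with a 95% interval of -0.43 to 0.52 (adjusted p = 0.907, edgeR), and without wt replicate 1 it was -0.16, so a change of moderate size in either direction lies within the interval.

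The promoters of the exporter that overlapped and of the lipoprotein that did not are shown because LXR is known to bind paired AGGTCA hexamers with a gap of 4 bases, written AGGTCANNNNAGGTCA, near its targets. RefSeq windows on GRCm38.p6 were found for 6 of the 10 genes, 9 windows in all, and Abcg1 was not among them. Both sequences run over the 250 bases before the start of the gene, 5′ to 3′ on the strand of the gene, and capitals mark the stretch of 16 bases that shares most letters with the pattern on either strand. Apoe is chr7:19699189-19699438 and Abca1 is chr4:53159896-53160145, both on the minus strand.
Abca1: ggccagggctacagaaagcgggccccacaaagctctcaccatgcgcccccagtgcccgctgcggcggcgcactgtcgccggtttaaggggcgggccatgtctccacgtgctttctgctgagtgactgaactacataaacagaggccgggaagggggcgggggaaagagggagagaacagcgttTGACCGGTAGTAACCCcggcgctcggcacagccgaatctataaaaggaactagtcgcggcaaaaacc
Apoe: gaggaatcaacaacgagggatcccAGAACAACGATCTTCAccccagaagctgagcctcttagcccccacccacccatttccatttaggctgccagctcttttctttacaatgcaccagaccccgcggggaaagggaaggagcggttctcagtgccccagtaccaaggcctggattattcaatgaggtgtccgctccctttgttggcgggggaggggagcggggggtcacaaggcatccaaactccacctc
In Abca1 the marked stretch, read on the opposite strand, shares 9 of the 12 fixed letters and begins 67 bases before the start, and 18.5% of all 32851 windows of this length hold a match of 9 or more. In the Apoe window, that of the first of its 3 starts, the best stretch shares 7 letters, which 99.5% of all windows reach. The windows of its other starts share 8 letters, as do those of Cd36, Spp1, Gpnmb and Cd9, and 70.6% of all windows reach this number. Sites beyond these windows were not sought, and binding of LXR was not tested, so the counts of letters do not decide whether LXR acts on a gene.

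For fatty acid uptake and transport the estimates lay nearer to 0. Fabp5 was lower in each library labelled knockdown, Cd36 was lower by mean with 1 library overlapping, and Lpl and Fabp4 had nearly equal means.

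Fabp5 (NCBI Gene 16592, chromosome 3, 10012548 to 10016607, plus strand), the fatty acid binding protein of skin and macrophages, had 137, 118 and 111 CPM in wt and 96.5, 79.8 and 106 in the libraries labelled knockdown. The groups did not overlap, although labelled knockdown replicate 3 came close to wt replicate 3. Fabp5 had a log2 fold change of -0.37 (standard error 0.15, 95% interval -0.72 to -0.03, adjusted p = 0.328, edgeR). Of the GENCODE transcripts of other genes, 5 processed pseudogenes matched Fabp5 over at least 300 bases at 93.6% to 98.3% identity, and how reads that fit both were counted is not stated, so its level is uncertain for this reason.

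Fabp4 (NCBI Gene 11770), the fatty acid binding protein of fat cells and activated macrophages, lies 187480 bp from Fabp5 on the same chromosome, from 10204088 to 10208576 on the minus strand. Its level was 6.95, 9.02 and 7.43 CPM in wt and 7.38, 8.07 and 8.07 in the libraries labelled knockdown, all within the range of wt. Its log2 fold change was 0.01 with a 95% interval of -0.45 to 0.46 (adjusted p = 0.985, edgeR), and -0.07 without wt replicate 1.

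Cd36 (NCBI Gene 12491, chromosome 5, 17781690 to 17888801, minus strand), a scavenger receptor for oxidized lipoproteins and fatty acids, had 118, 151 and 136 CPM in wt and 97.5, 107 and 126 in the libraries labelled knockdown. Only labelled knockdown replicate 3 reached the wt range, through wt replicate 1. For Cd36 the log2 fold change was -0.29 (95% interval -0.64 to 0.05, adjusted p = 0.346, edgeR) and -0.38 without wt replicate 1.

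Lpl (NCBI Gene 16956, chromosome 8, 68880491 to 68907448, plus strand), which releases fatty acids from lipoproteins, had 51.7, 54.1 and 56.2 CPM in wt and 51.1, 39.2 and 68.0 in the libraries labelled knockdown. The wt libraries lay close together, with a coefficient of variation of 4.18%, against 27.4% in the libraries labelled knockdown, which held both the lowest and the highest value. Its log2 fold change was -0.03 with a 95% interval of -0.49 to 0.42 (adjusted p = 0.928, edgeR), and -0.07 without wt replicate 1. Annotated transcripts of 3 other genes match Lpl at 90% to 91.1% identity over 358 to 419 bases. Among them is a retained-intron transcript of Slc7a11, which has counts of its own in the table. These matches are less close than those of Fabp5, and how far they bear on the level of Lpl is not known.

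Among the surface and secreted markers, Gpnmb was lower by mean, Cd9 had nearly equal means and Spp1 was the member with the highest positive estimate. Gpnmb (NCBI Gene 93695, chromosome 6, 49036546 to 49070929, plus strand), a membrane glycoprotein of lysosome-rich macrophages, had 82.9, 144 and 119 CPM in wt and 87.8, 84.7 and 73.0 in the libraries labelled knockdown. wt replicate 1 lay inside the range of the other group, and the remaining wt libraries were above all 3. Gpnmb had a log2 fold change of -0.50 (standard error 0.20, 95% interval -0.97 to -0.02, adjusted p = 0.328, edgeR). It was -0.69 without wt replicate 1 and -0.31 without wt replicate 2.

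Cd9 (NCBI Gene 12527, chromosome 6, 125460266 to 125494791, minus strand) had 289, 421 and 349 CPM in wt and 363, 290.2 and 356 in the libraries labelled knockdown, all within the wt range. Its log2 fold change was -0.07 with a 95% interval of -0.47 to 0.33 (adjusted p = 0.822, edgeR), and -0.20 without wt replicate 1. An annotated gene on the opposite strand, Gm26728, overlaps an exon of Cd9, and the use of strand in counting is not stated. The processed pseudogene Cd9-ps matches Cd9 at 91.1% identity over 665 bases, less closely than the pseudogenes of Fabp5 match it. How far this bears on the level of Cd9 is not known.

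Spp1 (NCBI Gene 20750, chromosome 5, 104435118 to 104441050, plus strand), whose product osteopontin binds CD44 and integrins, had 1159, 1464 and 1563 CPM in wt and 1747, 1469 and 1854 in the libraries labelled knockdown. Labelled knockdown replicate 2 lay within the wt range and the other 2 above it. Spp1 had a log2 fold change of 0.28 (standard error 0.17, 95% interval -0.12 to 0.68, adjusted p = 0.393, edgeR) and 0.16 without wt replicate 1. Scaled by the library total alone, as the deposited FPKM values are, the groups did not overlap, with 652, 824 and 926.5 FPKM in wt and 1107, 1015 and 1083 in the libraries labelled knockdown. Limma on log2(FPKM + 1) then gave 0.43 with an adjusted p of 0.242. The annotated gene Gm42793 overlaps an exon of Spp1 on the same strand.

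**Figure D2:**
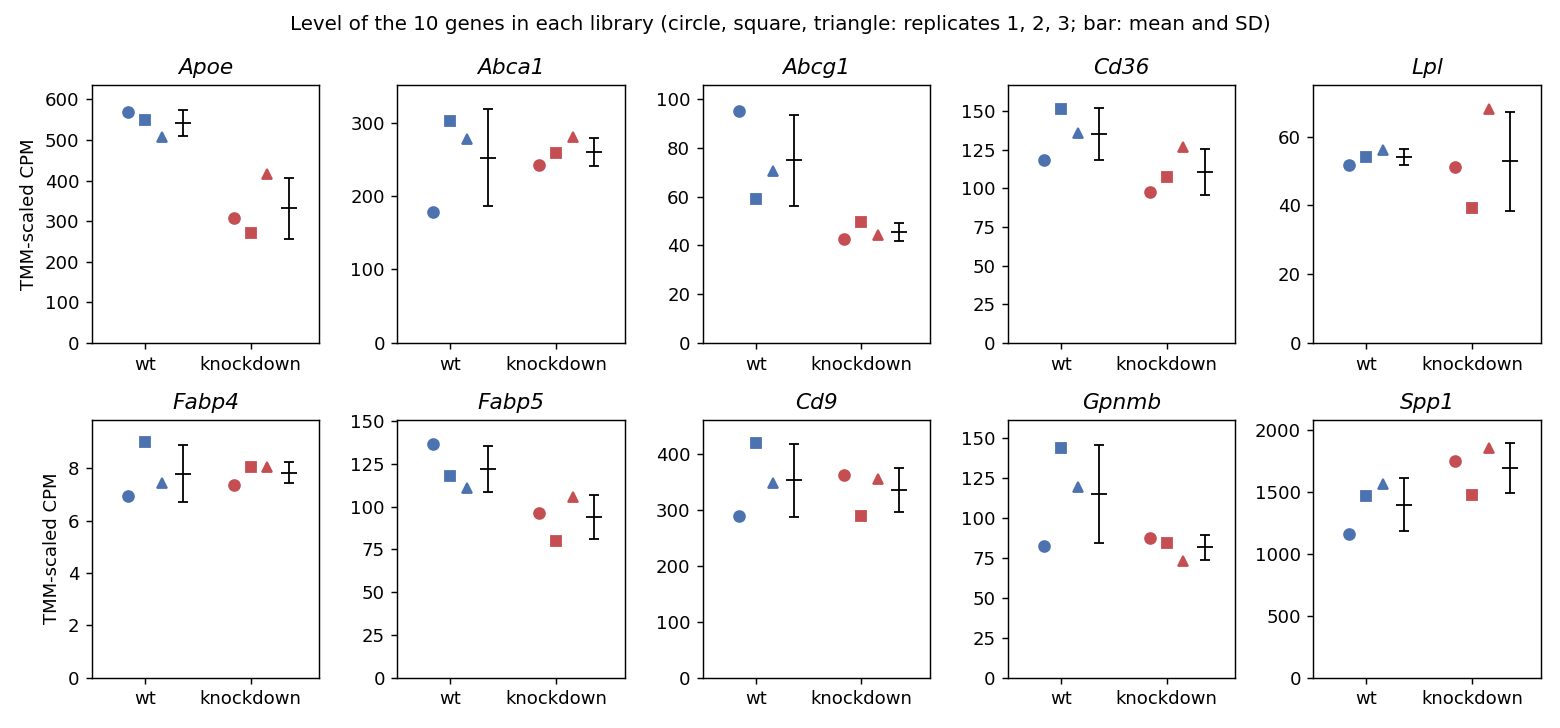
TMM-scaled CPM (vertical axis, from 0) of each of the 10 genes in wt (blue) and labelled knockdown (red) libraries, with circle, square and triangle for replicates 1, 2 and 3 and a bar for the mean and SD of 3 libraries. The groups are apart for Apoe, Abcg1 and Fabp5 and overlap for the other 7 genes.

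Over all 10 genes, 0 passed an adjusted p of 0.05 in edgeR, and among all genes tested 0% did. At an unadjusted p under 0.05, 4 genes were lower (Apoe, Abcg1, Fabp5 and Gpnmb) and 0 were higher, against 8.31% of all genes tested that were lower and 6.9% that were higher by the same rule. DESeq2 called 0 of the 10 and 0.263% of the genes for which it gave an adjusted p, with 4 of the 10 lower at an unadjusted p under 0.05. By that rule 5.35% of 22376 genes were lower and 5.6% higher. These shares include genes of few counts that edgeR filtered out, so they are not on the same set of genes as those of edgeR. Limma on log2(FPKM + 1) called 0 of the 10, with 3 at an unadjusted p under 0.05, of which Apoe and Abcg1 were lower, against 4.03% of all genes, and Spp1 was higher, against 15.9%. Without wt replicate 1, DESeq2 called Gpnmb (adjusted p = 0.0159, log2 fold change -0.72) and 0.659% of the 11844 genes for which it gave an adjusted p. In the same libraries edgeR called 0 of the 10, with 4 lower at an unadjusted p under 0.05, against 5.38% lower and 6.81% higher of all genes. Leaving out wt replicate 2, or labelled knockdown replicate 1 or 2, left 2 of the 10 at an unadjusted p under 0.05 in edgeR. Of all genes, 2689 of 14296, 775 of 14122 and 669 of 14070 reached that p in these fits, in that order. Without both wt replicate 1 and labelled knockdown replicate 3, a choice made after seeing the data, DESeq2 called Apoe, Gpnmb, Cd36 and Abcg1 (adjusted p 2.21e-05, 0.00727, 0.0256 and 0.0471). It also called 10.6% of the 12071 genes for which it gave an adjusted p. In the same 4 libraries edgeR called 0 of the 10, with 5 lower at an unadjusted p under 0.05, against 10.4% lower and 12.8% higher of all genes. The groups did not overlap for 3 genes that were lower and for 0 that were higher, where all genes tested gave 12.6% and 13.3%. Without wt replicate 1 the groups did not overlap for 5 genes, Gpnmb and Cd36 in addition, all lower, against 15.2% lower and 16.6% higher of all genes. The median log2 fold change of the 10 genes was -0.18, and that of all genes tested was 0.02. Without wt replicate 1 the median was -0.24 and 9 of the 10 estimates were below 0, against 7 with all libraries.

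These directions depend on what the libraries are scaled to. Among the summed macrophage markers, Cd14 (142254 to 279215 counts) and then Itgam (62530 to 105550) held the most counts in each library and so weigh most in the sum. Scaled to this sum instead of by TMM, the median of all genes moved from 0.02 to 0.50, and that of the 10 genes to 0.28. On that scale Apoe and Abcg1 kept estimates below 0, at -0.28 and -0.23, and the other 8 were above 0. Relative to the shift of all genes, Spp1 (0.73) and Abca1 (0.53) lay above it, Fabp4 (0.50) at it and the others below. Spp1 then had an adjusted p of 0.0801 (edgeR).

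**Figure D3:**
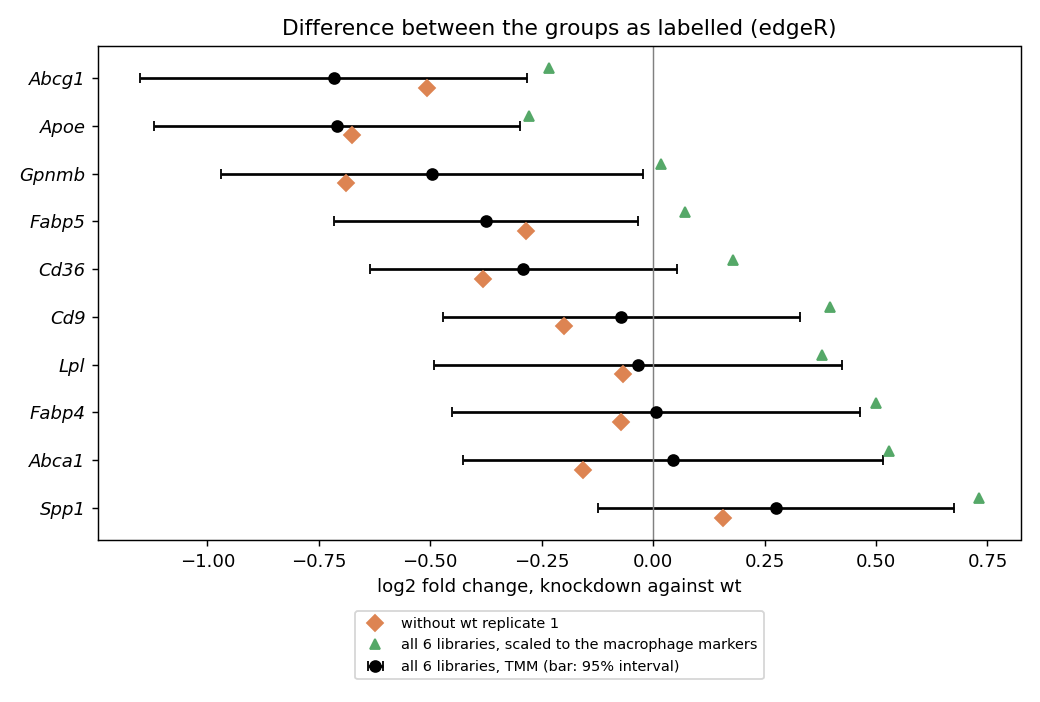
Log2 fold change of each gene, labelled knockdown against wt (horizontal axis), with all 6 libraries and its 95% interval (black), without wt replicate 1 (orange) and with scaling to the macrophage markers (green). Apoe and Abcg1 lie below 0 in all 3, and Spp1 lies above 0 in all 3.

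Ratios of 2 genes within a library do not depend on how libraries are scaled. They were chosen after the values were seen and are given as a description. Spp1 exceeded Apoe by 2.04, 2.67 and 3.08 times in wt replicates 1, 2 and 3 and by 5.68, 5.42 and 4.47 times in labelled knockdown replicates 1, 2 and 3. The groups were thus apart with and without wt replicate 1. Abca1 exceeded Abcg1 by 1.87, 5.13 and 3.95 times in wt and by 5.68, 5.22 and 6.32 times in the libraries labelled knockdown, where the highest wt library lay just under the lowest of the others. Of all counts on the 10 genes, Spp1 took 43.2%, 44.8% and 48.9% in wt and 57.4%, 55.3% and 55.7% in the libraries labelled knockdown.

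**Figure D4:**
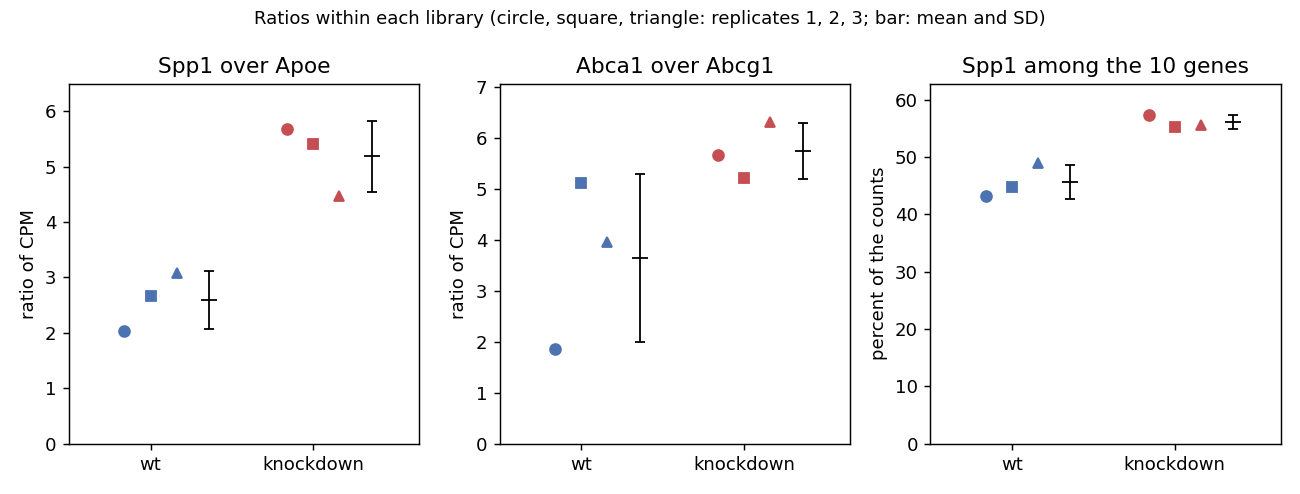
Ratio of Spp1 to Apoe, ratio of Abca1 to Abcg1 (both of CPM) and percent of the counts on the 10 genes that fell on Spp1, in wt (blue) and labelled knockdown (red) libraries, with circle, square and triangle for replicates 1, 2 and 3 and a bar for the mean and SD. The ratio of Spp1 to Apoe is at most 3.08 in wt and at least 4.47 in the other group.

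Over the 6 libraries the 10 genes did not vary as 1 set. The highest Pearson correlation of log2 CPM between members was that of Apoe with Fabp5 (0.94), and the lowest was that of Spp1 with Abcg1 (-0.87), both descriptions over 6 libraries that share the position of wt replicate 1 and the difference between groups. Apoe and Abcg1 correlated at 0.75 and Abca1 and Abcg1 at -0.59. Among genes outside the set, the nearest pattern to Apoe was that of Siglec1 (0.997), a sialic acid receptor of macrophages, and that to Abca1 was that of Olr1 (0.988), a receptor for oxidized lipoprotein. The nearest to Spp1 was Stxbp3 (0.996), to Abcg1 Ccdc88b (0.997), to Fabp5 Kifc3 (0.999), to Gpnmb Aldh1l1 (0.99), to Cd9 Ptx3 (0.987), to Lpl Itgb1 (0.987), to Fabp4 Arl8b (0.984) and to Cd36 Serpinb8 (0.983). Each is the highest value among all tested genes outside the set. Over 6 libraries, a choice among so many genes yields high correlations by itself. Shared regulation was not tested.

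The LXR receptors and their other targets mostly had estimates below 0. Of 15 tested genes of the LXR list, 13 had estimates below 0, with a median of -0.41, and 9 were lower without overlap, but 0 passed the adjusted threshold. At an unadjusted p under 0.05, 7 were lower and 1 was higher, and without wt replicate 1, or labelled knockdown replicate 1 or 2, these numbers were 2 and 0. Of all genes tested, 8.31% were lower and 6.9% higher at that p, and 12.6% were lower without overlap. In the 3 fits with a library left out, 1744 of 14311, 775 of 14122 and 669 of 14070 genes reached that p in either direction. Rxra, the partner with which LXR binds DNA, had a mean of 73.5 CPM in wt and 47.0 in the libraries labelled knockdown (log2 fold change -0.64, standard error 0.19, adjusted p = 0.328, edgeR), and Abca7, a transporter related to Abca1, had 211 and 128 (log2 fold change -0.72, and -0.45 without wt replicate 1). The higher gene was Scd1, a fatty acid desaturase, with 32.6 and 54.2 CPM and a log2 fold change of 0.73, named after its value was seen. With scaling to the macrophage markers, the median of this list was 0.06, under the shift of all genes.

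Lysosomal and droplet lipid handling, the step before export, had 16 of 20 estimates below 0 with a median of -0.38. Of these genes 9 were lower at an unadjusted p under 0.05 and 10 were lower without overlap, and 0 were higher by either rule. Of all genes tested, 8.31% and 12.6% were lower by these rules. Without labelled knockdown replicate 2 the median was -0.24 and 5 were lower at that p, which 669 of 14070 genes reached in either direction. Npc1, which moves cholesterol out of the lysosome, had 159, 167 and 145 CPM in wt and 96.9, 92.9 and 115 in the libraries labelled knockdown (log2 fold change -0.63, standard error 0.13, adjusted p = 0.328, edgeR). Soat1, which esterifies cholesterol for storage in droplets, had 238, 220.5 and 216 CPM in wt and 132, 99.3 and 169 in the others (log2 fold change -0.75). Both genes were thus lower in each library labelled knockdown, as Apoe was.

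Among lipoprotein and scavenger receptors other than Cd36, 8 of 9 estimates were below 0 with a median of -0.25. At an unadjusted p under 0.05, 4 were lower, or 2 without labelled knockdown replicate 2. Of all genes tested, 8.31% were lower at that p, and without labelled knockdown replicate 2, 669 of 14070 reached it in either direction. Lrp1, a receptor that takes up Apoe-bearing particles, had a mean of 1839 CPM in wt and 1079 in the libraries labelled knockdown (log2 fold change -0.77, standard error 0.19, adjusted p = 0.328, edgeR), and Stab1, a scavenger receptor, had 229 and 153 (log2 fold change -0.58). Of 17 other genes listed for the program named after the lipid receptor Trem2, itself among them, 12 had estimates below 0 (median -0.35). Whether each of these depends on Trem2 was not tested. By an unadjusted p under 0.05, 3 were lower, including the lysosomal protease Ctsb (log2 fold change -0.51) and the lysosomal glycoprotein Cd68 (-0.54). Lower and higher genes at that p numbered 0 and 0 without labelled knockdown replicate 1, and 1 and 3 without wt replicate 2. They numbered 1 and 0 without labelled knockdown replicate 2 (median then -0.23), and 8 and 1 without labelled knockdown replicate 3. Of all genes, 775 of 14122, 2689 of 14296, 669 of 14070 and 2466 of 14290 reached that p in these fits, in that order. Trem2 itself had a mean of 44.8 CPM in wt and 34.6 in the libraries labelled knockdown (log2 fold change -0.37, standard error 0.19).

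The PPAR list had 12 of 13 estimates below 0 with a median of -0.31, and 2 were lower at an unadjusted p under 0.05, Ppard, the widely expressed PPAR delta (log2 fold change -0.37), and Cpt1a, which admits fatty acids to mitochondria (-0.44, and -0.22 without wt replicate 1). The median of the PPAR list was -0.16 without wt replicate 1 and -0.18 without labelled knockdown replicate 2, and without labelled knockdown replicate 1 or 2 the count was 0. Of all genes tested, 8.31% were lower at that p with all libraries. Without labelled knockdown replicate 1 or 2, 775 of 14122 and 669 of 14070 genes reached it in either direction. Of 6 factors of the MiT and TFE family and cofactors, some of which drive lysosomal genes, with Mitf known to act on Gpnmb, 5 were below 0 with a median of -0.51. Usf2 (log2 fold change -0.55) and Tfe3 (-0.54) were lower without overlap, and Mitf itself had a mean of 31.2 CPM in wt and 32.4 in the libraries labelled knockdown. Of 7 regulators of Lpl, 5 were below 0 with a median of -0.17 (-0.10 without wt replicate 2), led by the maturation factor Sel1l (log2 fold change -0.35) and the protease Furin (-0.37).

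The 8 receptors for osteopontin, the product of Spp1, had a median of -0.08, with 5 estimates below 0, and the median lay between -0.12 and -0.02 with 1 library left out in turn. Itga9 had a log2 fold change of -0.72 and Itgb5 of -0.38 (-0.24 without labelled knockdown replicate 2). The cholesterol synthesis list had a median of -0.04 and 11 of 19 estimates below 0, and the median lay between -0.09 and 0.04 with 1 library left out in turn. At an unadjusted p under 0.05, where 8.31% of all genes tested were lower and 6.9% higher, 0 of its genes were lower and 1 was higher. This was Insig1, which restrains synthesis when sterol is plentiful, with 144, 120.2 and 101 CPM in wt and 154, 170 and 148 in the libraries labelled knockdown (log2 fold change 0.37, standard error 0.15, adjusted p = 0.328, edgeR, and 0.23 without wt replicate 3). Mvk, an enzyme of the mevalonate pathway, had a log2 fold change of 0.41. No difference between these lists was tested. With scaling to the macrophage markers the medians of the 9 lists turned to between 0.06 and 0.43, except -0.06 for the MiT and TFE list, all under the 0.50 of all genes on that scale.

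**Figure D5:**
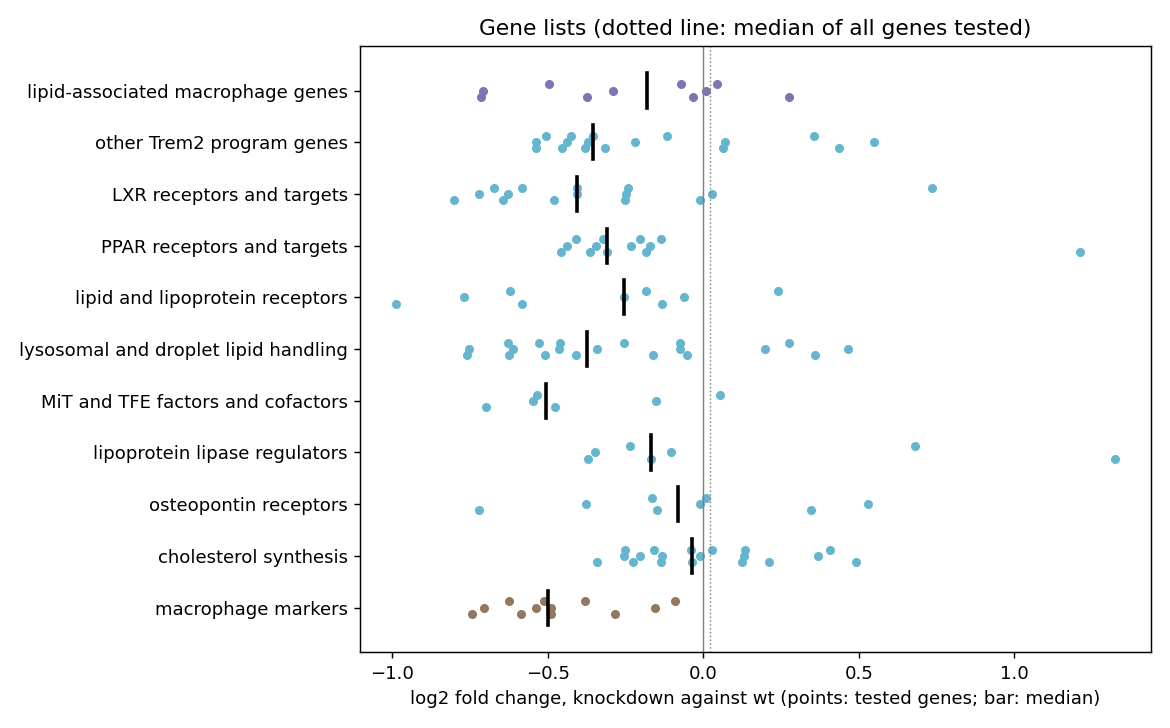
Log2 fold change, labelled knockdown against wt (horizontal axis), of each tested gene (point) in the 10 genes, the 9 related lists and the macrophage markers, with the median of each list (bar) and of all genes tested (dotted line). The median is -0.18 for the 10 genes, -0.41 for the LXR list, -0.04 for cholesterol synthesis and -0.50 for the macrophage markers.

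Markers of cell types were read beside these results. All 12 macrophage markers had estimates below 0, with a median of -0.50, lower than that of the 10 genes. At an unadjusted p under 0.05, 6 of them were lower, against 8.31% of all genes tested. Without labelled knockdown replicate 1, 2 were lower, where 775 of 14122 genes reached that p in either direction. Without labelled knockdown replicate 2, 3 were lower, where 669 of 14070 genes did. The 9 monocyte markers had a median of -0.69 and a summed level of 10610 to 13320 CPM in wt and 5567 to 10100 in the libraries labelled knockdown. The 12 fibroblast markers had a median of 1.11, which was 0.69 without wt replicate 1 and 1.85 without wt replicate 2. Their summed level was 38.4, 552 and 332 CPM in wt and 790.3, 675 and 412 in the others. Col3a1 held the most of these counts in each library, 676 to 23764, while Col1a1 had 21 to 217 and Col1a2 had 9 to 102. Of the 7 epithelial or carcinoma markers in the table, 2 were at no more than 3 counts in every library, and the summed level was 36.1 to 138 CPM in wt and 129 to 192 in the others, most of it Krt8 except in wt replicate 1, where Cdh1 had 865 counts and Krt8 352. The part of these cells in the levels of Spp1, Cd9 and Apoe was not tested. The sums of the T cell markers were 21.4 to 92.8 CPM in wt and 73.1 to 202 in the others, and those of the neutrophil markers were 1889 to 2093 and 836 to 1607. B cell sums were 6.26 to 36.1 and 11.8 to 58.0 CPM, dendritic cell sums 214 to 367 and 239 to 339, and alveolar macrophage sums 36.3 to 73.3 and 24.9 to 44.1.

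Fat cells also express Fabp4, Cd36 and Lpl, and endothelium expresses Fabp4 and Cd36. The fat cell markers Adipoq and Plin1 had 0 to 8 and 0 to 5 counts per library, and the sum of that list, 17.0 to 54.9 CPM, was almost wholly Lipe, which macrophages express as well. Endothelial markers summed to 39.3 to 55.2 CPM in wt and 38.2 to 42.9 in the libraries labelled knockdown. Pecam1 (850 to 1128 counts) and then Flt1 (227 to 506) held the most of these counts in each library, so the sum says little of the other endothelial markers. Platelet markers, which bear on Cd9 and Cd36 because platelets hold both, summed to 339 to 433 and 289.7 to 463 CPM, nearly all of it Pf4 and Ppbp. Neither sum separated the groups, although 7 of the 10 endothelial markers tested had estimates above 0, with a median of 0.69 that moved with single libraries, to 0.28, 1.499 and 0.45 without wt replicates 1, 2 and 3 and to 0.41 without labelled knockdown replicate 1.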

How the data were processed

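RNA was sequenced in 3 libraries labelled wt and 3 labelled knockdown, from LLC tumor macrophages by the study's methods and from tumor tissue by the labels. The authors deposited counts per gene, without normalization, and FPKM values, found on checking to be the counts over a gene length and the library total. The submitters' processing notes name mm10, and aligner, counter and annotation are not given in the sources used here. Coordinates are from GENCODE M21 on GRCm38 and promoters from RefSeq on GRCm38.p6, both matched by symbol. Near copies were sought with BLASTN 2.17.0 at 90% identity or more.

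Counts were compared with edgeR 4.0.16 in R 4.3.3 (filterByExpr, TMM factors, glmQLFit and glmQLFTest, two-sided, Benjamini-Hochberg adjustment over 13884 genes, threshold 0.05). Standard errors were taken from the fold change and the F statistic, and log2 CPM for correlations used a prior count of 2. Group values are of 3 libraries, each labelled as a biosample of its own. Alternatives used DESeq2 1.42.0 and limma 3.58.1 on log2 of FPKM plus 1 or plus 0.1. The code was tested on simulated data.

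The 10 genes and the lists were chosen with earlier results of these data known. Named with values are the 10 genes, Npm1, the nearest pattern to each, and the 2 genes with the smallest p in each of the 9 related lists. All others named were chosen after their values were seen. With 3 libraries against 3, an exact permutation test cannot go below 0.1, so none was used.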

Additional observations from a re-analysis of the deposited data

How the results depend on the processing

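Of all genes tested, edgeR called 0 under each other scaling, filter and left-out library tried, except that scaling to the macrophage markers called 1. DESeq2 called 36, or 78 without wt replicate 1 and 1283 without labelled knockdown replicate 3 as well, the last chosen after the data were examined. Of the 10 genes these called 0, 1 and 4. With the replicate block edgeR called 0 genes, 1606 at an unadjusted p under 0.05 against 2112 without it. Same-numbered libraries had correlations of deviations of -0.241, 0.0605 and -0.337. Differently numbered libraries were not compared, so these values cannot decide whether same-numbered libraries share more than a number.

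Some log2 fold changes reversed. With macrophage scaling they were 0.18 for Cd36, 0.40 for Cd9, 0.013 for Cpt1a, 0.071 for Fabp5, 0.10 for Furin, 0.019 for Gpnmb, 0.054 for Itgb5, 0.38 for Lpl, 0.097 for Ppard and 0.11 for Sel1l. With library totals alone Cd9 had 0.073 and Lpl 0.095, and with limma (pseudocounts 1 and 0.1) Cd9 had 0.088 and 0.088 and Lpl 0.075 and 0.079. Fabp4 had -0.0087 with RLE factors, -0.016 with DESeq2 and -0.0064 without a filter. DESeq2 without wt replicate 1, then also without labelled knockdown replicate 3, gave -0.18 and -0.25 for Abca1 and -0.098 and -0.13 for Fabp4. With libraries left out in edgeR, the range was -0.22 to 0.19 for Abca1, -0.24 to 0.071 for Cd9, -0.095 to 0.12 for Fabp4 and -0.29 to 0.13 for Lpl. The cause was not tested. Apoe, Abcg1 and Spp1 kept their direction under every alternative run. With 3 libraries a group, and for some genes a wide spread within wt, the intervals given are wide. Where an interval holds 0, differences of either direction within it remain possible.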
